A study of Mus musculus with 10 samples.

Results

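Binding of the transcription factor XBP-1 was compared between the livers of fed and fasted mice by chromatin immunoprecipitation and sequencing (ChIP-seq). The comparison rests on the 4 libraries labelled fed or fasted, out of 10 samples in the series. The remaining samples were not analysed here. All 4 libraries came from liver of wild-type C57BL/6J mice and used the same antibody, named Xbp-1s (Santa Cruz) in the labels, and they differ in the labels only by feeding state. The groups are Fed (libraries Fed 1 and Fed 2) and Fasted (libraries Fasted 1 and Fasted 2). The labels used here give neither the length of the fast nor the age or sex of the mice, and they do not say whether the libraries of a group came from separate animals. The p-values therefore measure only the spread between these libraries, which may be technical. The 203542 peaks of the 4 lists were merged wherever they overlapped by at least 1 bp, which gave 112251 regions, and 10361 of these held a peak in all 4 libraries. Liver was taken as a whole tissue, so a change in the share of a cell type and a change in binding per cell cannot be told apart.

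XBP-1 is a basic leucine zipper transcription factor of the unfolded protein response, the program that adjusts the protein-folding capacity of the endoplasmic reticulum (ER). The ER stress sensor IRE1, encoded by Ern1, splices Xbp1 mRNA, and the spliced form XBP-1s activates genes for chaperones, protein translocation, glycosylation, ER-associated degradation and vesicle transport. In hepatocytes, which secrete large amounts of protein, XBP-1 is also known as a regulator of lipid synthesis, and feeding is a known stimulus of its splicing.

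Many of the highest-ranked regions lay at promoters of these secretory-pathway genes. The promoter stretches below are shown as examples of the motif matches found under high-ranked summits and of the regions with the largest difference between the groups. They were chosen for holding a match, and some promoters of similar rank hold none, such as that of Pdia3. They are from RefSeq on the mouse build GRCm38.p6 (mm10), are printed along the strand of the gene and end before its annotated start. Capitals mark matches to the ER stress response element (ERSE: CCAAT and CCACG separated by any 9 bases, on either strand), which is known to be bound by XBP-1 and ATF6.

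Hspa5, chr2:34772005-34772063, plus strand: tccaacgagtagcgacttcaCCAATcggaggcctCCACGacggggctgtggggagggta

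Hsp90b1, chr10:86705513-86705676, minus strand: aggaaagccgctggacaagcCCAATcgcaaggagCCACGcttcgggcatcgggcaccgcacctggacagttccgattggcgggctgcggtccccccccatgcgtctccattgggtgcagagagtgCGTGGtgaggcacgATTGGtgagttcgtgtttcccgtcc

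Dnajc3, chr14:118937807-118937865, plus strand: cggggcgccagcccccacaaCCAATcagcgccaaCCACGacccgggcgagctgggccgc

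Creld2, chr15:88819500-88819558, plus strand: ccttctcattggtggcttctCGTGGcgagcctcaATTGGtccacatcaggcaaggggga

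Pdia6, chr12:17266471-17266529, plus strand: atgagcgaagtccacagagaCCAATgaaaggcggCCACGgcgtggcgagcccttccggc

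The median summit of the 4 libraries lay 3 bp from the centre of the match at Hspa5, the ER Hsp70 chaperone BiP. It lay 13 bp away at Dnajc3, a co-chaperone of BiP, 17 bp away at Creld2, an ER-resident protein of the disulfide isomerase type, and 53 bp away at Pdia6, a protein disulfide isomerase. Pdia6, Txndc11 and Ube2j1 were chosen after their values were seen. Hsp90b1, the ER Hsp90 chaperone GRP94, held 2 matches in opposite orientation, the nearer of them 49 bp from the summit. In the following stretches the capitals mark the shortened ER stress response element II at Herpud1, a component of the ER-associated degradation machinery. They mark the unfolded protein response element (UPRE, TGACGTGG, or its reverse complement) at Sec24d, a cargo-binding subunit of the COPII coat, at Txndc11, an ER thioredoxin-domain protein, and at Ube2j1, an ER ubiquitin-conjugating enzyme. They mark the UPRE core GACGTG at Mia3, the cargo receptor TANGO1.

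Herpud1, chr8:94386357-94386407, plus strand: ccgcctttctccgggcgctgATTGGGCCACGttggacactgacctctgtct

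Sec24d, chr3:123267450-123267495, plus strand: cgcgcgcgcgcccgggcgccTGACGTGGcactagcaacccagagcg

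Txndc11, chr16:11134607-11134654, minus strand: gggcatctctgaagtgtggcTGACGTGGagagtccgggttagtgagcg

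Ube2j1, chr4:33031292-33031339, plus strand: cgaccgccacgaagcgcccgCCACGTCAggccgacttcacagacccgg

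Mia3, chr1:183369625-183369670, minus strand: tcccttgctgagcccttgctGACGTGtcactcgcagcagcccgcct

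The summit lay 0.5 bp from the centre of the match at Mia3, 6.5 bp at Sec24d, 10 bp at Herpud1, 21.5 bp at Txndc11 and 53.5 bp at Ube2j1. For comparison, the next stretches are from the promoters of Magt1 and Bhlha15, the pair with the largest excess of Fed over Fasted rank (values below). Capitals in Magt1 mark the E-box CACGTG, 10.5 bp from the summit. None of the motifs searched matched anywhere in the promoter window of Bhlha15, and the stretch around its summit is printed.

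Magt1, chrX:106011874-106011919, minus strand: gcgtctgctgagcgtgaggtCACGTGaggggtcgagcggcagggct

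Bhlha15, chr5:144190154-144190234, plus strand: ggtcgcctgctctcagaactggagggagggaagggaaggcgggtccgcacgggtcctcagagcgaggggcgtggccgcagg

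Motif matches were counted in 21263 RefSeq promoter windows of 300 bases, from 250 bases before to 50 after the annotated start, on both strands. UPRE matches also hold the core GACGTG, and ERSE can share its CCACG with a reverse-strand UPRE, so these counts overlap. Across all promoters, 7.17% held GACGTG, 0.705% the UPRE, 0.141% the ERSE and 7.84% the E-box. Shared regions, meaning those called in all 4 libraries, had their summit in 1025 of the promoters. Each was ranked by pileup within each library, as a percentile from 0 (lowest) to 100 (highest) of the 10361 shared regions. Where the mean percentile was above 99 (43 promoters), 58.1% held GACGTG, 27.9% the UPRE and 16.3% the ERSE. Between 95 and 99 (56 promoters) the shares were 55.4%, 12.5% and 1.79%. In the lower 50 percentiles (256 promoters) they were 10.2%, 1.17% and 0. The share with the ETS site CCGGAAGT was 11.6% in the highest bin and 5.15% over all promoters. That with the cAMP response element TGACGTCA was 0 in the highest bin, 5.36% between 95 and 99 and 2.23% over all promoters. The E-box was in 20.9% of the highest bin, 14.3% between 95 and 99 and 12.9% in the lower 50 percentiles.

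**Figure D1:**
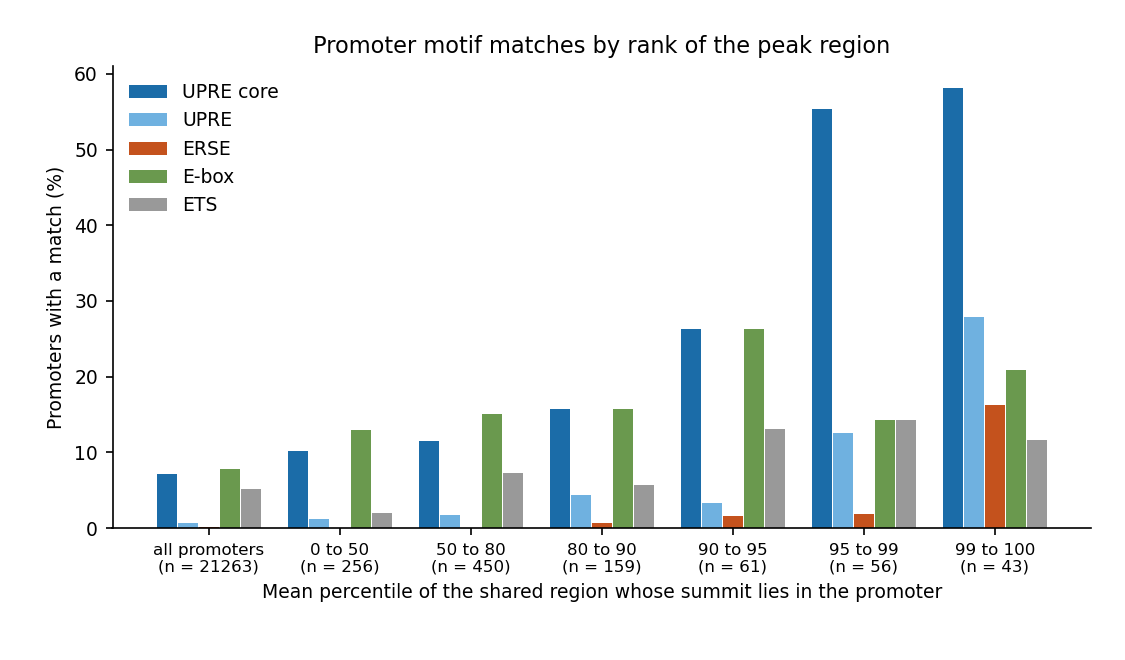
Share of promoters (y axis, percent) with a match to each motif (coloured bars), for all 21263 promoters and for promoters holding the summit of a shared region, in bins of the mean percentile of pileup (x axis, number of promoters in brackets). The UPRE core is in 10.2% of promoters in the lowest bin and 58.1% in the highest, and the ERSE is concentrated in the highest bin (16.3%).

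Matches to GACGTG and the UPRE were present among the promoters with the strongest regions in each of the 4 libraries. Above percentile 99 within each library, GACGTG was present in 57.4% of 61 promoters in Fed 1, 56.1% of 57 in Fed 2, 57.4% of 47 in Fasted 1 and 64.3% of 42 in Fasted 2. The UPRE was present in 18.0% in Fed 1, 21.1% in Fed 2, 25.5% in Fasted 1 and 28.6% in Fasted 2. These sets were drawn from the same 1025 promoters and are small, and no test was made between them. Among shared promoters with a mean percentile over 90, the median distance from motif to summit was 17 bp for the ERSE (9 promoters), 25.5 bp for the UPRE (21), 33.5 bp for GACGTG (72), 63.5 bp for the E-box (33) and 74.5 bp for the ETS site (21). The strongest regions also sat closer to the start. Over the 4497 shared regions near an annotated start the median summit lay at 171 bp downstream and 80.5% were downstream. In the 53 with a mean percentile over 99 the median position was -24 bp, and 37.7% were downstream.

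The 4 libraries differed in depth and in list length, and Fasted 2 stood apart from the other three. Tags kept by the authors' peak caller numbered 17399899 in Fed 1 and 7765561 to 9620502 in the others, against the same input library. The lists held 82975 peaks in Fed 1, 47357 in Fed 2, 53973 in Fasted 1 and 19237 in Fasted 2. The mean was 65166 ± 25185.7 (SD, n = 2) in Fed and 36605 ± 24562.1 (SD, n = 2) in Fasted. An exact two-sided permutation test gave p = 0.67, the smallest possible being 0.33. With n = 2 per group this test cannot decide whether the groups differ. Fasted 2 had more kept tags than Fed 2 or Fasted 1 and fewer peaks. Across the 10361 shared regions, Spearman's rho of pileup was 0.87 between Fed 1 and Fed 2, 0.88 between Fed 1 and Fasted 1 and 0.86 between Fed 2 and Fasted 1. Against Fasted 2 it was 0.50 for Fed 1, 0.56 for Fed 2 and 0.57 for Fasted 1. Fasted 1 was thus closer to both Fed libraries than to Fasted 2. These are correlations across regions, which are not replicates. Results are given with and without Fasted 2. Without it, ranks were taken over the 24645 regions called in Fed 1, Fed 2 and Fasted 1, and the Fasted group then has 1 library.

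Genes were assigned a peak where its summit lay within 1 kb of the annotated start, or of either end where the reference used here gave no start (4395 of 21887 protein-coding genes). A peak was near 13993 genes (63.9%) in Fed 1, 12438 (56.8%) in Fed 2, 12961 (59.2%) in Fasted 1 and 5896 (26.9%) in Fasted 2. Of all genes, 5717 (26.1%) had one in every library and 5966 (27.3%) had one in every library but Fasted 2. Among regions, the largest class was that of Fed 1 alone, with 47243 regions (42.1% of all), of which 8.13% lay near a gene. The 10361 shared regions lay near a gene in 53.3% of cases. Regions found in the Fed libraries alone, both of them, numbered 2588 (2.31%), and 15.2% of them lay near a gene. Those found in both Fasted libraries alone numbered 672 (0.599%), and 1.64% lay near a gene. The Fed lists were longer than that of Fasted 2. With every list held to its 19237 highest peaks there were 885 Fed-only and 1913 Fasted-only regions. Without Fasted 2 there were 2724 regions in both Fed libraries only and 12089 in Fasted 1 only.

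**Figure D2:**
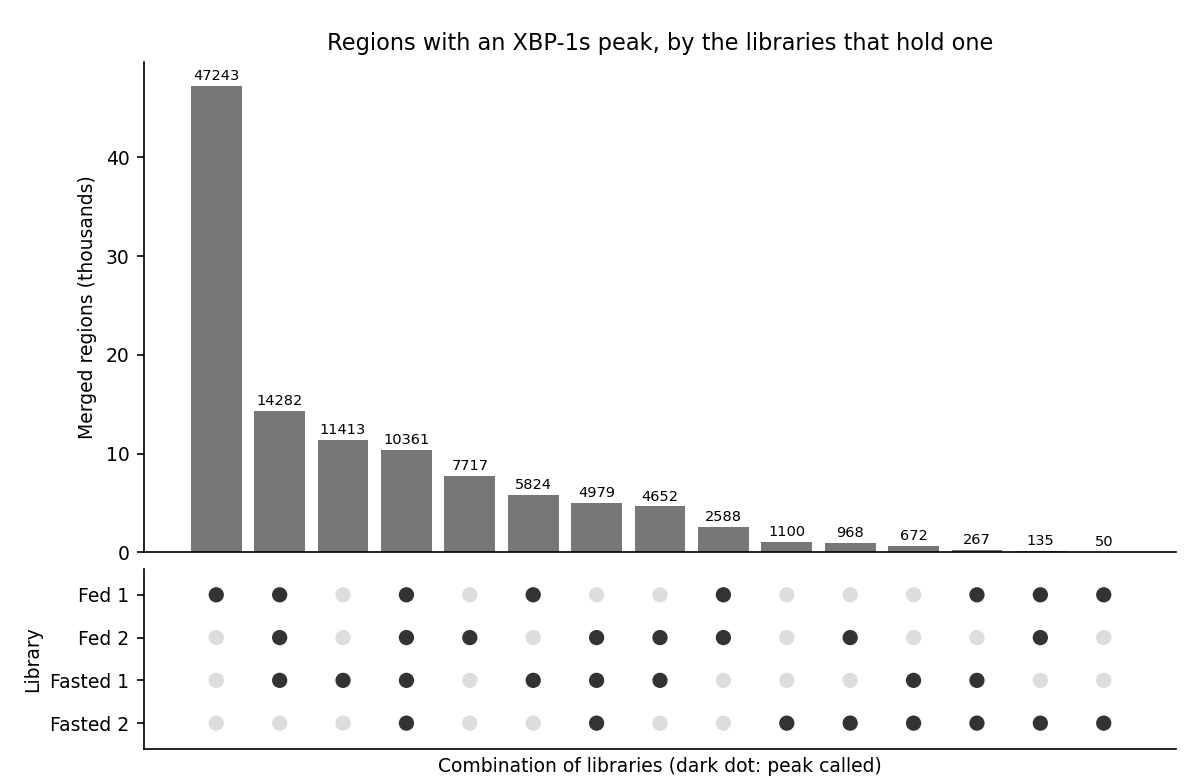
Number of merged regions (y axis, in units of 1000) for each combination of libraries that hold a peak (dark dots below each bar). Fed 1 alone is the largest class with 47243 regions, all 4 libraries share 10361, both Fed libraries alone share 2588 and both Fasted libraries alone share 672.

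The genes that define the unfolded protein response had some of the highest-ranked regions in all 4 libraries. Hspa5 had the region chr2:34771298-34772840 around its start, with a pileup of 404 tags in Fed 1, 321 in Fed 2, 287 in Fasted 1 and 91 in Fasted 2. Its rank among the shared regions was 1, 14, 9 and 65 in that order, so Fasted 1 lay between the Fed libraries and Fasted 2 below all. Hsp90b1 ranked 2 in Fed 1, 2 in Fed 2, 4 in Fasted 1 and 50 in Fasted 2. Both Fed values were above both Fasted values, by 2 ranks for Fasted 1. Xbp1 itself, whose summit lay 314 bp downstream of its start, ranked 6 in Fed 1, 11 in Fed 2, 5 in Fasted 1 and 36 in Fasted 2. Its groups overlapped. Edem1, a mannosidase-like factor of ER-associated degradation, ranked 109, 108, 184 and 55, also with overlap.

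Several regions ranked as high or higher in both Fasted libraries, Fasted 2 included. Pdia3, the ER disulfide isomerase ERp57, shares its region with Catsper2 and ranked 10 in Fed 1, 5 in Fed 2, 2 in Fasted 1 and 4 in Fasted 2. Tram1, a translocon-associated membrane protein, ranked 12, 7, 2 and 6 in the same order. Dnajc3 ranked 20, 12, 8 and 10. For these genes both Fasted values were above both Fed values, by a few places among 10361. Sec24d showed the same order, at 51, 28, 21 and 17. Mia3 ranked 18, 7, 24 and 9 and Creld2 27, 24, 27 and 48, with overlap. Herpud1 ranked 40, 49, 29 and 179, and Sec61a1, the pore of the translocon, 46, 51, 39 and 67, also with overlap. Dnajb9, the BiP co-chaperone ERdj4, ranked 33, 82, 74 and 99, and Sdf2l1, an ER chaperone partner, 100, 58, 93 and 116. Of the high-ranking genes outside the ER, Brd2, a bromodomain protein that shares its region with H2-DMa, ranked 6, 3, 6 and 5. Hnrnpa3, an RNA-binding protein, ranked 12, 9, 11 and 14, and Eif3a, a subunit of translation initiation factor 3, ranked 4, 4, 17 and 15.

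Ern1 and Ddit3 gave wider separations. The region of Ern1, at chr11:106487029-106488361, had a pileup of 57 in Fed 1, 36 in Fed 2, 74 in Fasted 1 and 44 in Fasted 2, that is, percentiles of 89.3, 72.7, 96.0 and 95.9. Both Fasted values were above both Fed values. The difference in mean percentile was -14.9 (Fed minus Fasted, limma adjusted p = 0.78). It was 11.3 when regions were ranked by fold enrichment instead of pileup, so its direction depends on the measure. Without Fasted 2 the percentiles were 93.4 and 84.1 in Fed and 98.2 in Fasted 1 (limma adjusted p = 0.65). Ddit3, the stress-induced factor CHOP, ranked 151 in Fed 1, 134 in Fed 2, 175 in Fasted 1 and 852 in Fasted 2. Both Fed values were above both Fasted values, and the distance rested mostly on Fasted 2.

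**Figure D3:**
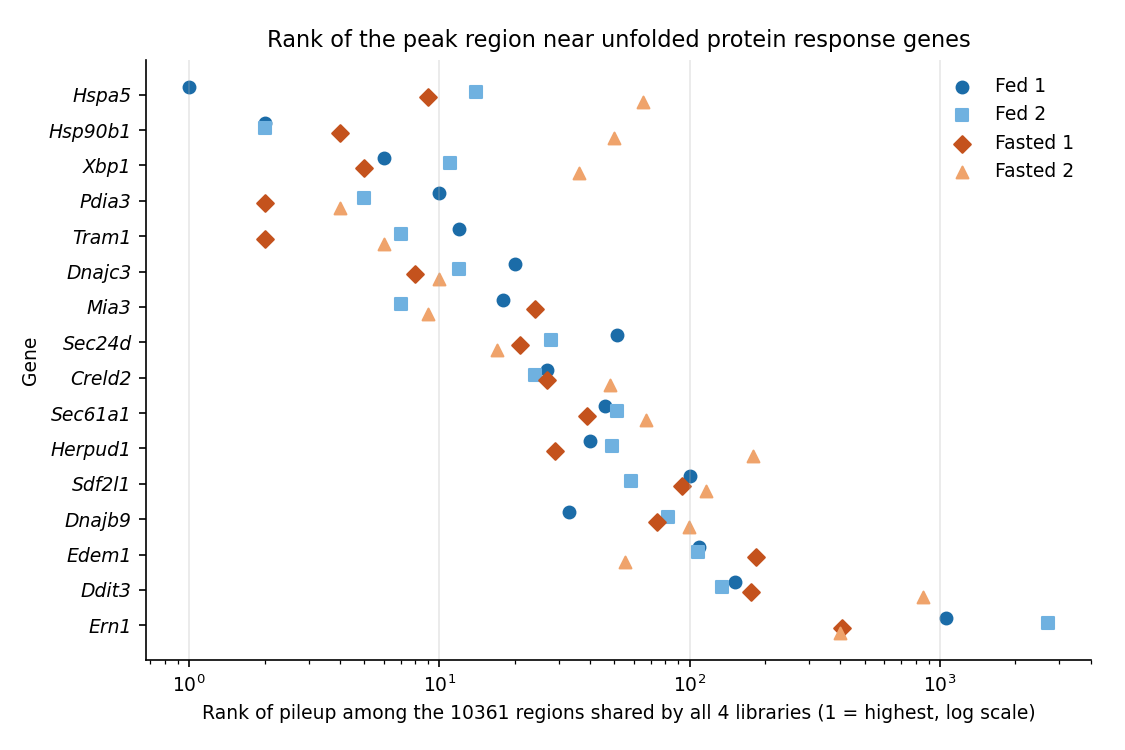
Rank of pileup among the 10361 shared regions (x axis, log scale, 1 the highest) for regions near 16 unfolded protein response genes (y axis), one point per library, set apart vertically for legibility. Fasted 1 lies outside the pair of Fed points at most genes, on either side. Fasted 2 is the rightmost point at Hspa5, Hsp90b1, Xbp1, Creld2, Sec61a1, Herpud1, Sdf2l1, Dnajb9 and Ddit3. At Ern1 both Fasted points are at higher rank than both Fed points.

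No shared region passed the test between the groups. With limma on normal scores of the ranks, 0 of 10361 regions had a Benjamini-Hochberg adjusted p under 0.05 (0% in either direction), and the smallest adjusted p was 0.78. At an unadjusted p under 0.05 there were 550 regions (5.31%), 287 with higher Fed and 263 with higher Fasted rank. With the replicate number as a block the count was also 0 (smallest adjusted p = 0.15, 838 regions unadjusted). A looser description counts the regions whose 2 Fed values do not overlap their 2 Fasted values. By it, 2010 of 10361 regions (19.4%) ranked higher in Fed and 1990 (19.2%) higher in Fasted. Near genes the balance differed, with 1512 of 5745 genes (26.3%) higher in Fed and 958 (16.7%) higher in Fasted. Without Fasted 2, the Fed-higher and Fasted-higher counts were 4015 (34.6%) and 4189 (36.1%) of 11594 genes.

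The excess of Fed-higher regions near genes moved with Fasted 2. Of the 5526 shared regions near a gene, 26.0% were higher in Fed and 16.4% higher in Fasted. Of the 2914 regions inside gene bodies, 12.7% were higher in Fed and 22.2% higher in Fasted, and of the 1921 elsewhere 10.7% and 22.7%. The median percentile of the regions near genes was 70.3 in Fed 1, 70.4 in Fed 2, 70.7 in Fasted 1 and 59.6 in Fasted 2. In gene bodies it was 28.7, 28.5, 27.8 and 41.7. Fasted 2 alone was low near genes and high in gene bodies. Without it, the Fed-higher share was 34.3% near genes, 32.2% in gene bodies and 32.9% elsewhere, and the Fasted-higher share 36.3%, 35.3% and 34.6%. The part of Fasted 2 in each gene count that follows was not tested beyond the values given without it.

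The largest differences toward Fed were at Bhlha15 and Magt1. Bhlha15 encodes MIST1, a factor of secretory cells and a known target of XBP-1. Its region, chr5:144189830-144190573, had a pileup of 58 in Fed 1, 36 in Fed 2, 15 in Fasted 1 and 15 in Fasted 2. The percentiles were 90.2, 72.7, 8.12 and 15.1, with both Fasted libraries far below both Fed libraries in this region. Fasted 1 had a higher peak near the gene outside this region, with a pileup of 24 and its summit at chr5:144191248. The contrast thus describes the region and not every peak near Bhlha15. The limma adjusted p was 0.78 with 4 libraries. Without Fasted 2, in a fit that assumes the lone Fasted library to vary like the Fed libraries, the percentiles were 94.0, 84.1 and 21.2 and the limma adjusted p was 0.035. Magt1, an oxidoreductase subunit of the oligosaccharyltransferase, had a pileup of 77, 67, 32 and 13 in its region chrX:106011327-106012149. Its percentiles were 96.4 in Fed 1, 96.9 in Fed 2, 45.7 in Fasted 1 and 8.39 in Fasted 2 (limma adjusted p = 0.78; 0.091 without Fasted 2). The groups did not overlap, and Fasted 2 was the lowest.

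In the rest of the 10 genes with the largest Fed-higher differences, both Fed libraries were above both Fasted libraries, as their selection required. Fasted 2 was the lowest. The other settings reuse the same libraries, so a direction kept in them is no independent support. Kdm6a, a histone H3K27 demethylase, had percentiles of 97.7 in Fed 1, 95.7 in Fed 2, 48.6 in Fasted 1 and 5.87 in Fasted 2. Cdk4, a cell-cycle kinase, had 84.7, 94.9, 40.9 and 15.1. Pex11g, a peroxisomal membrane protein, had 99.1, 97.9, 57.7 and 27.6. Srd5a3, an enzyme of the dolichol synthesis that N-glycosylation requires, had 92.9, 93.3, 52.4 and 27.6. Eef2k, Naglu, Ppp1cb and Gpsm2 completed the set, with Fed values of 75.1 to 97.1 and Fasted values of 11.5 to 53.9. All 10 kept the direction in every setting in which they could be ranked, and none but Bhlha15 had an adjusted p under 0.05 in limma without Fasted 2.

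The largest differences toward Fasted were at genes outside the secretory pathway. Cic, the transcriptional repressor Capicua, had the region chr7:25268353-25268712, with its summit 833 bp downstream of the start. Its pileup was 26 in Fed 1, 23 in Fed 2, 66 in Fasted 1 and 45 in Fasted 2, and its percentiles were 46.1, 43.5, 91.4 and 96.4 (limma adjusted p = 0.78; 0.14 without Fasted 2). Both Fasted libraries were far above both Fed libraries in this region. The highest Fed peaks near Cic lay outside it, with a pileup of 43 in Fed 1 and 28 in Fed 2. The fold enrichment of the region described was 4.31 in Fed 1, so it leaves the comparison at a fold of at least 5. Tti2, a component of the TTT complex that stabilises PI3K-related kinases, had percentiles of 46.1, 28.5, 82.6 and 85.2. Hdac7, a class IIa histone deacetylase, had 37.0, 47.9, 76.8 and 88.5. Tns1, a focal adhesion protein, had 53.5, 58.8, 92.2 and 95.9. Acot12, a cytosolic acyl-CoA thioesterase of liver, had 39.2, 38.0, 61.9 and 98.5. Fignl2 had 41.1, 24.8, 48.6 and 91.2, with Fasted 2 far above the rest in this region. That Fasted 2 value came from a summit at chr15:101053380, with a pileup of 38, more than 1 kb from the start. The highest Fasted 2 peak near Fignl2 had a pileup of 14, below 23 in Fed 1, 17 in Fed 2 and 34 in Fasted 1. Psg16, Pabpn1, Pafah2 and Esrrg, the nuclear receptor ERR gamma, completed the set. When Fasted 2 is left out, another region ranks highest near Acot12 and near Esrrg, so no value without it is given for these. At Acot12 and Esrrg too, the highest peaks of both Fed libraries lay outside the region described. At Tti2 and Pafah2 this was so for Fed 1.

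**Figure D4:**
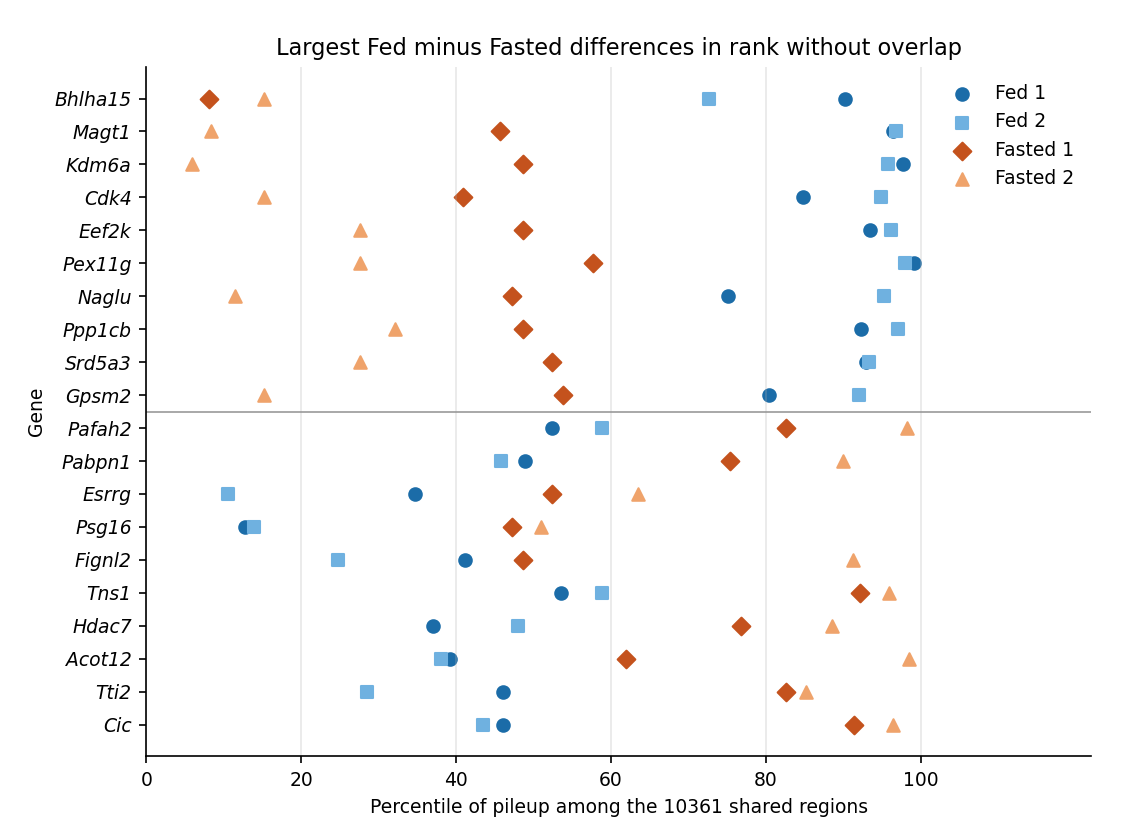
Percentile of pileup among the 10361 shared regions (x axis) for the 10 genes with the largest Fed-higher (above the line) and Fasted-higher (below the line) differences without overlap, one point per library. At Bhlha15 the Fed points are at 72.7 and 90.2 and the Fasted points at 8.12 and 15.1, and at Cic the order is the opposite.

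Without Fasted 2, limma called 45 of 24645 regions, 33 higher in Fed (0.134%) and 12 higher in Fasted 1 (0.0487%), at an adjusted p under 0.05. Of these, 10 Fed-higher and 3 Fasted-higher regions lay near a gene. The genes in this paragraph other than Bhlha15 and Ostc were chosen after their values were seen. Copg1, a subunit of the COPI coat of Golgi-to-ER vesicles, had percentiles of 99.2 in Fed 1, 98.4 in Fed 2 and 56.8 in Fasted 1 (limma adjusted p = 0.035). Tmem41b, an ER lipid scramblase, had 98.7, 98.9 and 60.7, and Mesd, an ER chaperone of LDL-receptor family proteins, had 97.5, 98.3 and 52.6 (limma adjusted p = 0.036 for each). Ostc, a subunit of the oligosaccharyltransferase, had 99.3, 90.8 and 45.0 (limma adjusted p = 0.036). With Fasted 2, the percentiles of Ostc were 98.6, 83.5, 25.2 and 73.8, and the groups still did not overlap. Immt, an organiser of mitochondrial cristae, had 76.8, 97.6 and 24.8. The rest of the Fed-higher regions near genes, at Epha5 with Gm42163, Rab9b, Bcat1 and Tex22, had Fasted 1 percentiles of 0.262 to 0.990. The Fasted-higher regions lay near Fgf12, Pex5l and Prrt3, with Fed percentiles of 0.0467 to 12.2 and Fasted 1 percentiles of 32.2 to 45.0. With 1 Fasted library these calls have no replicate of the fasted state.

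Most genes of the secretory pathway had a peak in each library, fewest in Fasted 2. Over 5 lists (ER protein folding, translocon and ER targeting, ER-associated degradation, N-glycosylation, ER-Golgi transport), 137 of 140 genes had one in Fed 1, 133 in Fed 2, 134 in Fasted 1 and 88 (62.9%) in Fasted 2, beside 63.9%, 56.8%, 59.2% and 26.9% of all genes. Of the 88 with a shared region, 0 passed limma, 37 (42%) ranked higher in Fed and 9 (10.2%) higher in Fasted, beside 26.3% and 16.7% over all genes. Without Fasted 2 the counts were 74 (55.6%) and 33 (24.8%) of 133, beside 34.6% and 36.1%. The differences were small: the median was 1.27 percentiles with 4 libraries and 0.13 without Fasted 2. The median percentile of the 88 shared members was 99 in Fed 1, 99 in Fed 2, 98.8 in Fasted 1 and 95.2 in Fasted 2. Copg1 and Ostc passed limma without Fasted 2. These lists were chosen with earlier results in view.

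By role, 24 of 28 ER folding genes had a peak in Fasted 2, against 27 in each other library. Of the 24 shared, 10 (41.7%) were higher in Fed and 2 (8.3%) in Fasted, beside 26.3% and 16.7% over all genes. Without Fasted 2 the counts were 15 and 7 of 27, beside 34.6% and 36.1% over all genes. Canx, the lectin chaperone calnexin, had percentiles of 99.8 in Fed 1, 99.1 in Fed 2, 99 in Fasted 1 and 83.4 in Fasted 2. Ero1a, an ER oxidase, had 95.5, 97.2, 86.3 and 73.8. Of the translocon genes 7 of 14 were higher in Fed and 2 in Fasted (12 and 8 of 24 without Fasted 2). Srp19, a protein of the signal recognition particle, had 98.9, 98.0, 97.0 and 59.6. Of the ER-associated degradation genes 5 of 14 were higher in Fed and 1 in Fasted (11 and 5 of 22 without Fasted 2). Ubxn4, an ER recruiter of the ATPase p97, had 98.8, 97.3, 87.6 and 36.8, and Vcp, p97 itself, had 96.4, 90.3, 88.8 and 27.6. In both genes Fasted 2 lay farther below Fasted 1 than Fasted 1 lay below the Fed libraries.

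N-glycosylation genes had a median difference of 3.92 percentiles with 4 libraries, the largest of these 5 lists. Without Fasted 2 it was 0.26, below ER-associated degradation (0.38) and ER-Golgi transport (0.38). The counts were 7 of 15 higher in Fed and 2 in Fasted (14 and 6 of 23 without Fasted 2). Over all genes the shares were 26.3% and 16.7% with 4 libraries and 34.6% and 36.1% without Fasted 2. Beside Magt1 and Ostc, Alg6, a glucosyltransferase of the lipid-linked oligosaccharide, had percentiles of 95 in Fed 1, 96.1 in Fed 2, 63.3 in Fasted 1 and 55.4 in Fasted 2. Its Fasted values were both well below its Fed values. Of the ER-Golgi transport genes 8 of 21 were higher in Fed and 2 in Fasted (22 and 7 of 37 without Fasted 2). Sec31a, the outer COPII coat subunit, had 99.3, 98.3, 86.3 and 89.9. Among the unfolded protein response factors the counts were even without Fasted 2, at 7 and 7 of 23 (30.4% each), near the shares over all genes. Creb3, an ER-bound factor cleaved in the Golgi, had 98.0, 87.7, 63.3 and 41.7.

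The proteasome list showed the same direction at lower ranks. A peak was near 31 of 31 genes in Fed 1, 29 in Fed 2, 29 in Fasted 1 and 9 in Fasted 2. Of the 9 shared, 7 (77.8%) ranked higher in Fed and 0 in Fasted, with a median difference of 28.9 percentiles, beside 26.3% and 16.7% over all genes. Without Fasted 2, 19 of 28 (67.9%) ranked higher in Fed and 3 (10.7%) in Fasted, with a median difference of 7.16, beside 34.6% and 36.1%. By limma 0 members passed in either fit. Psmd7, a lid subunit of the regulatory particle, had percentiles of 95 in Fed 1, 92.1 in Fed 2, 83.8 in Fasted 1 and 27.6 in Fasted 2. Psmc2, an ATPase of the base, had 66.9, 54.4, 49.9 and 11.5. Both had their lowest value by far in Fasted 2.

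**Figure D5:**
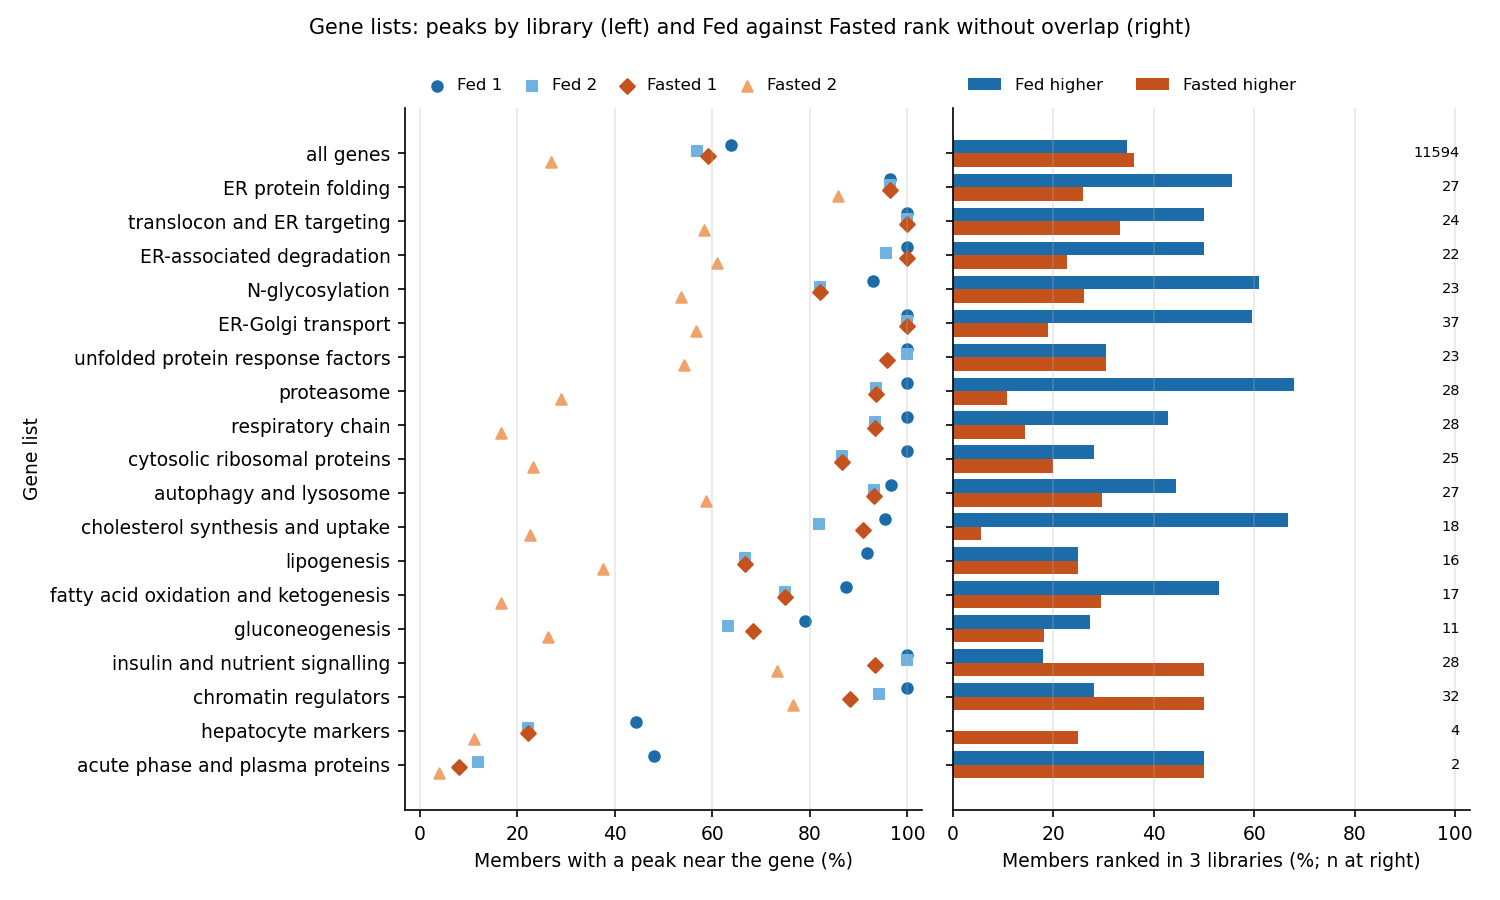
Left: share of the members of each gene list with a peak near the gene (x axis, percent), one point per library, set apart vertically for legibility. Right: share of members ranked higher in both Fed libraries than in Fasted 1 (blue) or lower in both (orange) among the members ranked in Fed 1, Fed 2 and Fasted 1 (number at right). Fasted 2 has the fewest genes in every list shown. Among the lists shown, the blue bar exceeds the orange most for the cholesterol (66.7% against 5.6%) and proteasome (67.9% against 10.7%) lists. Lipoprotein assembly, not shown, had 83.3% against 16.7% of 6 ranked members. With 4 libraries its 1 ranked member was higher in Fasted.

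Most genes of hepatic metabolism had no peak in Fasted 2, and the same was true of all genes. The share with a peak there was 26.9% over all genes. Over the metabolic lists it ran from 6.25% (lipoprotein assembly) to 37.5% (lipogenesis). For cholesterol synthesis and uptake, 21 of 22 genes had a peak in Fed 1, 18 in Fed 2, 20 in Fasted 1 and 5 in Fasted 2. Without Fasted 2, 12 of 18 (66.7%) ranked higher in Fed and 1 (5.6%) in Fasted, with a median difference of 9.49 percentiles and 0 past limma, beside 34.6% and 36.1% over all genes. With 4 libraries 3 of 5 ranked higher in Fed and 0 in Fasted, beside 26.3% and 16.7% over all genes. Insig1, which retains the SREBP complex in the ER, had percentiles of 97.4 in Fed 1, 94.5 in Fed 2, 81.1 in Fasted 1 and 59.6 in Fasted 2. Fasted 1 lay below the Fed libraries and Fasted 2 lower still. Of genes ranked in 3 libraries only, Sc5d, a late enzyme of the pathway, had 86.9, 96.6 and 42.1 in Fed 1, Fed 2 and Fasted 1 (limma adjusted p = 0.095). Sc5d was chosen after its values were seen.

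Of the lipid genes, Srebf1, which encodes the lipogenic factor SREBP-1, had percentiles of 94.0 in Fed 1, 97.7 in Fed 2 and 68.5 in Fasted 1 (limma adjusted p = 0.30) and no peak in Fasted 2. Mttp, which loads lipid onto nascent lipoproteins, had 76.8, 77.5 and 24.8 (limma adjusted p = 0.20) and no peak in Fasted 2. Dgat2, an enzyme of triglyceride synthesis, had 96.0, 88.4 and 72.4 (limma adjusted p = 0.62). All 3 were lower in Fasted 1 than in either Fed library, and none passed the test. Lpin2, a phosphatidate phosphatase, ranked the other way, at 77.1, 95.9, 97.0 and 97.7. For lipogenesis as a list the counts were even without Fasted 2, at 4 and 4 of 16 (25% each), beside 34.6% and 36.1% over all genes. Scd1 and Acacb, enzymes of fatty acid synthesis and its regulation, had a peak in Fed 1 only.

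Of the fasting-response and signalling genes named next, 0 passed limma in either ranking. Pck1, the gluconeogenic carboxykinase, had a peak in Fed 1 only, Fgf21, a fasting-induced hormone, in Fed 1 and Fasted 1, and Ppargc1a, a gluconeogenic coactivator, in no library. Cpt1a, which admits fatty acids to mitochondria, had percentiles of 89.8 in Fed 1, 84.1 in Fed 2 and 71.1 in Fasted 1 (limma adjusted p = 0.84). Foxo1, a factor of gluconeogenic transcription, had 83.3, 77.5 and 75.0, and Igfbp1, a secreted IGF-binding protein, had 52.1, 64.3 and 54.8. Of these only Igfbp1 had overlapping values. Foxo1 also had a peak in Fasted 2. Its highest peaks in Fed 1, Fed 2 and Fasted 2 lay outside the region ranked here, so its values describe that region only. Irs2, an insulin receptor substrate, had 85.9, 79.6, 83.8 and 91.2 in the 4 libraries, with overlap. Fasted 1 had no peak within 1 kb of the start of Irs2, and its value came from a summit at chr8:11007343 in the merged region. Sirt1, a nutrient-sensing deacetylase, had 85.9 and 87.7 in Fed and 95.1 and 93.9 in Fasted. Cebpa, a hepatocyte transcription factor, had 71.9 and 79.6 in Fed and 81.1 and 95.3 in Fasted. For fatty acid oxidation and ketogenesis 9 of 17 genes (52.9%) ranked higher in Fed and 5 (29.4%) in Fasted without Fasted 2, beside 34.6% and 36.1% over all genes. For gluconeogenesis the counts were 3 and 2 of 11, and with 4 libraries 0 and 2 of 4, beside 26.3% and 16.7% over all genes.

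Several lists had more members higher in Fasted 1 than in Fed without Fasted 2, where the shares over all genes were 36.1% and 34.6%. For insulin and nutrient signalling, 5 of 28 signalling genes (17.9%) ranked higher in Fed and 14 (50%) in Fasted 1, and for chromatin regulators 9 (28.1%) and 16 (50%) of 32. Neuronal genes (0 in Fed and 7 in Fasted 1 of 10) also had more members higher in Fasted 1. For the circadian clock (5 and 8 of 20) the Fasted 1 share of 40% was close to that of all genes. With 4 libraries the counts were 6 and 4 of 20 for signalling and 5 and 6 of 25 for chromatin regulators, beside 26.3% and 16.7% over all genes. They were even for the clock (3 and 3 of 13) and for neuronal genes (1 and 1 of 5). Crebbp, a histone acetyltransferase, had percentiles of 68.6 in Fed 1, 58.8 in Fed 2, 82.6 in Fasted 1 and 88.5 in Fasted 2. Sin3a, a corepressor scaffold, had 71.9, 79.6, 57.7 and 50.9. The groups of both genes did not overlap, in opposite directions. Csnk1e, a kinase of the circadian clock, had 57.3, 68.0, 87.6 and 88.5, with both Fasted libraries higher. Of 28 respiratory chain genes 12 (42.9%) ranked higher in Fed and 4 (14.3%) higher in Fasted 1, without Fasted 2, beside 34.6% and 36.1%. Cox4i1, a subunit of cytochrome oxidase, had 94.3, 92.8, 85 and 79.0 in the 4 libraries.

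The promoters ranked higher in Fed and in Fasted differed in their share with an E-box and with other motifs. Of the 346 promoters with a shared region higher in Fed, 24.0% held CACGTG, compared with 7.48% of the 147 higher in Fasted and 12.2% of the 532 with overlap. GACGTG was present in 22.5%, 12.2% and 14.8%. Without Fasted 2 the shares with an E-box were 20.4% of 982, 11.2% of 661 and 14.5% of 587, and those with GACGTG 17.0%, 11.3% and 12.6%. The share with the E-box over all promoters was 7.84%. The ETS site was in 9.25% of the Fed-higher and 2.72% of the Fasted-higher promoters, and in 9.88% and 4.08% without Fasted 2. For the cAMP response element the shares were 4.91% and 2.04%, and 6.72% and 3.03% without Fasted 2. For each of these motifs the share was thus higher in the Fed-higher than in the Fasted-higher promoters, with and without Fasted 2. This difference was not particular to the E-box and GACGTG. The UPRE was more frequent in the Fed-higher promoters with 4 libraries, but not without Fasted 2 (2.85% against 2.87%). The ERSE shares without Fasted 2 were 0.509% and 0.454%. No test was made.

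Genes with a peak in one group only were few. The Fed libraries alone had a peak near 267 genes (1.22%), and the Fasted libraries alone near 19 (0.0868%), counting genes found in both libraries of the group. With the lists held to equal numbers of peaks there were 386 and 169 genes. Without Fasted 2 there were 298 and 321 genes, where a peak in Fasted 1 alone was enough to count as Fasted-only. The rule for Fasted-only genes was thus looser without Fasted 2. The part of Fasted 2 in the excess of Fed-only genes was not tested. Of the 267 Fed-only genes, 245 (91.8%) lay at a region with no Fasted peak, and 22 at a region that also held one. Tesk1, a kinase gene that ranked first of the Fed-only genes, was of the second kind, with percentiles of 93.8 in Fed 1, 94.9 in Fed 2, 93.4 in Fasted 1 and 93.9 in Fasted 2. Its summit lay within 1 kb of the gene in the Fed libraries only, while the region ranked alike in all 4. Among regions with Fed peaks alone, Brca1, a DNA repair gene, shares one with Nbr1, an autophagy receptor gene, at rank 345 of the Fed 1 list and rank 4791.5 of the Fed 2 list. Bet1l, a Golgi SNARE, ranked 372 and 8143, and Psma1, a proteasome core subunit, 2881.5 and 7124.5. These ranks, within each full list, were higher in Fed 1 than in Fed 2.

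Of the 19 Fasted-only genes, 15 lay at a region called in all 4 libraries. Spred2, an inhibitor of Ras signalling, had percentiles of 80.4 in Fed 1, 77.4 in Fed 2, 83.8 in Fasted 1 and 97.2 in Fasted 2 at its region, and Hipk3, a nuclear kinase, had 90.2, 93.8, 90.5 and 92.3. Only 4 genes had a region with Fasted peaks alone: Defb46, Cd3e, Faim2 and Krtap12-1, named after their values were seen. Their ranks were 27042 to 47546 in the list of Fasted 1 and 11076 to 15943 in that of Fasted 2, out of 53973 and 19237 peaks.

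Peaks do not measure expression, so the tissue label could be set only against the presence of peaks near markers. Hepatocyte markers had one in 8 of 18 genes in Fed 1, 4 in Fed 2, 4 in Fasted 1 and 2 in Fasted 2, and Alb, the albumin gene, in none. For acute phase and plasma proteins the counts were 12, 3, 2 and 1 of 25. Kupffer cell markers had 6, 3, 3 and 0 of 15, endothelial markers 6, 4, 6 and 2 of 15, and lymphocyte markers 3, 2, 4 and 3 of 15. None of these lists had a share of genes with a peak above that of all genes in Fed 1 (63.9%). Of 15 stellate cell markers 7, 8, 8 and 2 had a peak, and of 10 cholangiocyte markers 6, 7, 7 and 1. In rank, without Fasted 2, endothelial markers were higher in Fasted 1 in 3 of 4 genes and higher in Fed in 0, cholangiocyte markers in 3 and 0 of 5, and stellate cell markers in 4 and 2 of 6, beside 36.1% and 34.6% of all genes. The part of cell composition in the differences between the groups was not tested.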

How the data were processed

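Chromatin from 4 mouse liver libraries (2 Fed, 2 Fasted) was immunoprecipitated and sequenced. Each library has its own peak list; 8 of the 12 deposited lists, of other experiments or pooled samples, were not used. Per the file headers, the authors called peaks in each library with MACS 2.1.1.20160309 against one input (q cutoff 0.05, 1 tag per position); the submitters' processing notes name MACS2 2.2.1, FastQC 0.11.3, Bowtie2 2.2.5, bcl2fastq and mm10. The deposited values are the pileup (a signal, in tags, not scaled to depth), the fold enrichment over input (a ratio), and −log10 of p and q. The q and fold values were used only as filters and in alternatives.

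Peaks overlapping by at least 1 bp were merged, and a region took the highest pileup per library. Pileup moves with depth (7765561 to 17399899 kept tags), so ranks within a library over the same regions were compared, as percentiles or, in limma 3.58.1 (R 4.3.3), as normal scores with Benjamini-Hochberg adjustment over all shared regions. The script was tested on simulated data. In each ranking a gene takes its highest-ranked region, which can differ between settings. Gene starts, ends and promoters are RefSeq's, on GRCm38.p6. Named genes are a fixed list of 28, the 10 highest, 10 per direction by difference without overlap, 10 per direction by presence in one group, and 3 per list by difference; the text describes part of them, and some are not reported here. Members and lists were chosen with earlier results of these data known. Python 3.11.15, pandas 2.3.3, numpy 2.4.6, scipy 1.17.1 and matplotlib 3.10.9 were used. The 13 alternatives covered stricter q and fold, equal peak numbers, overlap, window, measure, single peaks, a replicate block and each library left out.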

Additional observations from a re-analysis of the deposited data

How the results depend on the processing

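Counts of regions and genes depended on how many peaks each list held. At a −log10 q of at least 5 there were 1214 Fed-only regions, 1110 Fasted-only regions and 31 Fasted-only genes. At a −log10 q of at least 10 there were 3968 regions in all libraries, 329 Fed-only and 1876 Fasted-only regions, 68 Fasted-only genes, and 812 regions higher in Fed and 809 higher in Fasted without overlap. There the log2 difference in peak number, 0.96 with all peaks, reversed to -0.0943. At a fold enrichment of at least 5 there were 6437 regions in all libraries, 654 Fed-only regions, 134 Fed-only genes, 41 Fasted-only genes, and 1231 and 1204 regions without overlap. With equal numbers of top peaks there were 6150 regions in all libraries, 885 Fed-only and 1913 Fasted-only regions and 169 Fasted-only genes. These settings test fewer peaks by construction.

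Leaving out each library in turn gave 10533 to 24645 regions in all remaining libraries, 2724 to 50055 Fed-only and 943 to 12089 Fasted-only regions, 298 to 6233 Fed-only and 36 to 321 Fasted-only genes, and 3421 to 8210 regions higher in Fed and 3334 to 8788 higher in Fasted without overlap. Limma called 0 to 33 regions higher in Fed and 0 to 12 higher in Fasted, with calls only without Fasted 2. In fits with 1 library in a group, that library is assumed to vary like the others. In all other settings limma called 0, the smallest adjusted p being 0.074 (rank by fold enrichment). With the replicate block it called 0 (838 unadjusted). The replicate numbers share no stated animal or day, and the deviations of Fed 1 and Fasted 1 correlated at 0.14 with only 2 pairs, so the numbers were not taken to pair the libraries. Of the differences at named genes, 1064 gene and setting pairs moved little and 192 moved.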
